A study of Mus musculus with 23 samples.

Results

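The carbonic anhydrase cluster of the mouse holds the genes Car13, Car1, Car3 and Car2 side by side on chromosome 3, and its open chromatin was described in the epithelium of the colon and the duodenum. The stretch examined was a window of 310 kb in the mm9 genome build, whose first accessible region was chr3:14620105-14620447 and whose last was chr3:14913864-14914065, and every accessible region inside it was taken. Peaks of the 23 libraries that overlapped were merged into 32 regions in the window, out of 149024 in the whole genome. Of these, 21 held a peak in at least 2 libraries, out of 85469 such regions in the genome, and only these 21 were tested one by one. Counts and sums over the window use all 32. The window was set by position and not by a measured value, though earlier results of these data were known when it was chosen.

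Carbonic anhydrases interconvert carbon dioxide and bicarbonate, the reaction behind acid and bicarbonate transport across the gut lining. Car1 encodes a cytosolic enzyme that is abundant in the surface epithelium of the colon and in red blood cells. Car2 encodes a cytosolic enzyme of high activity found in many tissues, gut epithelium included. Car3 encodes a cytosolic enzyme of low activity that is abundant in muscle, fat and liver, and Car13 encodes another cytosolic member made in several tissues. In the RefSeq annotation of the assembly GRCm38.p6 the genes run, by rising position, Rbis, Car13, the pseudogene Gm5843, Car1, the pseudogene Gm16399, the long noncoding RNA Gm41999, Car3, Car2 and the long noncoding RNA A930001A20Rik. That assembly is not the build of the peaks, so only this order was used and no region is assigned to a gene, a promoter, an exon or an intron. The promoter sequences of Car13, Car1, Car3 and Car2 are not shown here.

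Accessibility was measured by ATAC-seq, in which a transposase inserts sequencing adapters into open DNA. The colon groups were juvenile colon at 15 days with 6 pups pooled per library, adult colon at 90 days with 2 mice pooled, and geriatric proximal colon at 21 months with 2 mice pooled. The duodenum groups were juvenile duodenum at 12 days, adult villus and adult crypt at 90 days, and geriatric villus and geriatric crypt at 21 months. Each group had 3 libraries except geriatric proximal colon, which had libraries 1 and 3. Juvenile duodenum was whole epithelium, whereas later samples were split on a strainer into villi, which carry differentiated absorptive cells, and crypts, which hold dividing cells, so age and fraction cannot be told apart between them. Geriatric proximal colon differs from adult colon in the part of the colon as well as in age. The labels name no strain, sex or treatment. Tissue labels were not checked against marker genes, since no gene positions of the mm9 build were used here.

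The libraries differed in depth and in the length of their peak lists. The reads kept by the caller ranged from 20.5 M to 47.9 M in colon libraries and from 14.4 M to 40.5 M in duodenum libraries. Peak lists held 11355 to 32855 peaks in colon and 35105 to 60519 in duodenum. The pileup, the number of extended reads stacked at a peak's summit, was expressed per 1000000 kept reads and is called the normalised pileup. Over the 5226 regions with a peak in all 23 libraries its median ranged from 0.471 in geriatric proximal colon 3 and 0.650 in adult villus 3 to 2.52 in adult colon 2. Levels are therefore also given relative to that median of the same library, called the relative level. A library without a peak has no value in the files. A library's lowest listed peak anywhere, its floor, had a normalised pileup of 0.265 to 0.390 in colon and 0.205 to 0.476 in duodenum. Peaks were called against a local background, so at a given place a pileup above the floor could go uncalled. A value above another library's floor therefore does not show that a peak would have been called there. In bulk tissue, fewer cells with an open region and less opening per cell cannot be told apart.

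The 21 regions were short, from 146 to 992 bp with a median of 306 bp, and most were open in the duodenum. Of the 21 regions, 12 had no colon peak, 2 had no duodenum peak and 7 had peaks in both tissues. The genome shares of these classes are not given. Colon libraries were fewer, and every colon list was shorter than every duodenum list, so these counts do not set the window apart. The 11 regions seen in a single library were 2 in colon, both adult colon, and 9 in duodenum, of which 5 were in juvenile duodenum. Distances below are in kb from the centre of chr3:14780200-14780696, the region with the largest excess of colon over duodenum libraries, and they increase with position.

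**Figure D1:**
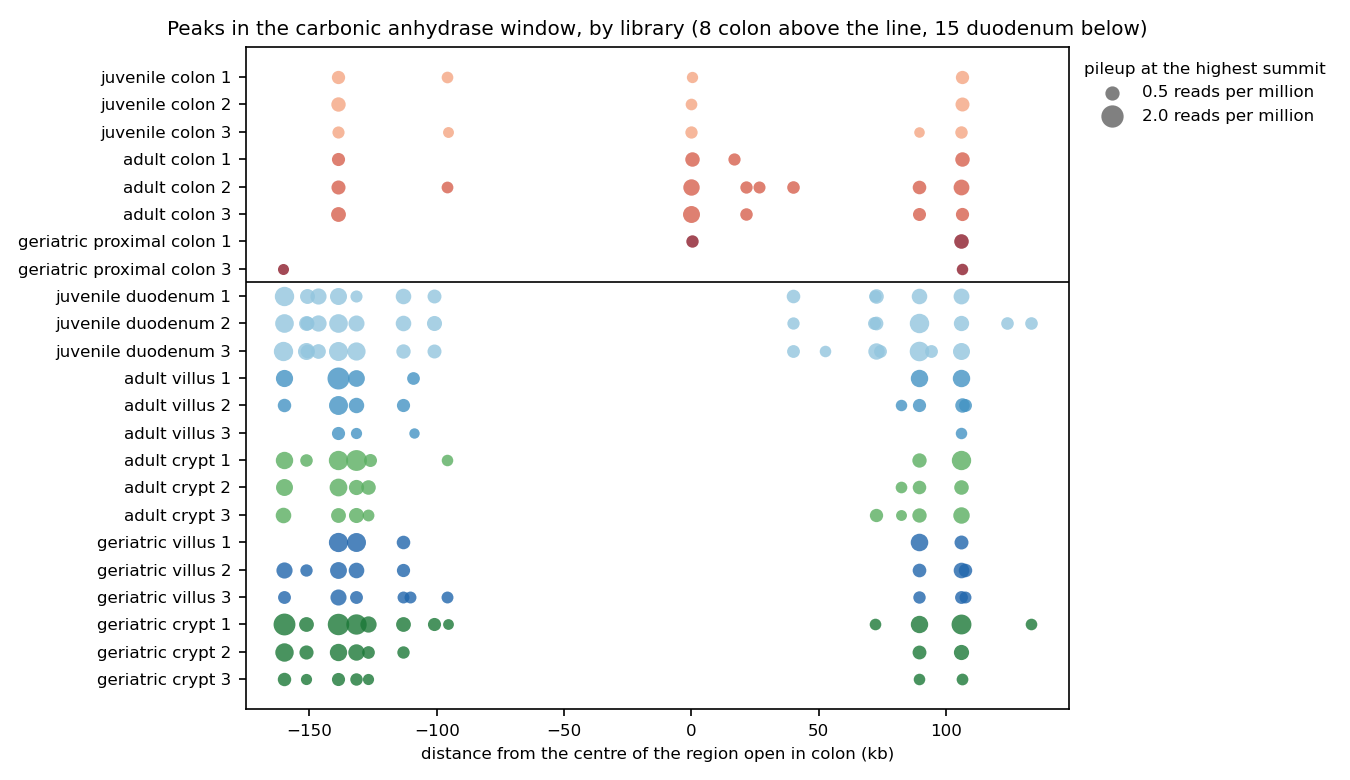
Peaks in the carbonic anhydrase window, one row per library, with circle area growing with normalised pileup at the highest summit and the horizontal axis giving distance in kb. Colon libraries are above the line and duodenum libraries below it. The nearest regions with a duodenum peak around 0.0 kb are at -95.5 and 39.8 kb. Between them 7 of 8 colon libraries had a peak. This stretch was chosen after its values were seen.

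The question put by the study's comparison of tissues is where chromatin is open in colon or in duodenum. In the window, 1 of the 21 regions was called more often in colon and 2 were called more often in duodenum. The test was a two-sided Fisher's exact test of peak presence over 8 colon and 15 duodenum libraries, with Benjamini-Hochberg adjustment over all 85469 regions at 0.05. Across the genome 0.253% of regions were called higher in colon by the same rule and 9.32% were called lower in colon. The 2 of 21 regions lower in colon are 9.52% of the window, next to a background of 9.32%, so the window's share was close to that of the genome.

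The region higher in colon was chr3:14780200-14780696, at 0.0 kb. It had a peak in 7 of 8 colon libraries and in 0 of 15 duodenum libraries (exact p = 3.26e-05, adjusted p = 0.00132, Fisher's exact test with Benjamini-Hochberg adjustment). Its normalised pileup was 0.385, 0.437 and 0.522 in juvenile colon. In adult colon it was 0.856, 1.20 and 1.31, and in geriatric proximal colon 1 it was 0.536. Geriatric proximal colon 3, the library with the lowest median at constantly open regions, had no peak there. The lowest adult colon library stood above every juvenile colon library, with means of 1.12 ± 0.237 in adult colon and 0.448 ± 0.0694 in juvenile colon (SD, n = 3 each). On the relative scale the same groups overlapped, at 0.479 ± 0.0880 in adult colon and 0.405 ± 0.142 in juvenile colon (SD, n = 3 each). Of the 7 colon values, 5 lay above 0.476, the highest floor of any duodenum library. With only peaks of −log10 q of at least 5, the region was held by 4 of 8 colon libraries and 0 of 15 duodenum libraries and was no longer called (adjusted p = 0.0680, Fisher's exact test). It also missed the threshold with equal list lengths (adjusted p = 0.0732) and with peaks that had to cover 50% of the region (adjusted p = 0.0848), both by Fisher's exact test.

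Few places in the genome had this pattern. A peak in at least 7 of 8 colon libraries and in no duodenum library was found in 16 regions of the 85469, or 0.0187%. The exact set of 7 libraries was shared by 6 regions, of which 5 were outside the window. Presence over 23 libraries was the measure of likeness, and nothing else about those 5 regions was used. The region at 0.0 kb was picked on these same presence values, so the counts describe it and are no test. Every colon peak list was also shorter than every duodenum list.

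The same region stood inside a long stretch without duodenum peaks, chr3:14685036-14820133. This stretch of 135.098 kb was picked out after its values were seen, as the neighbourhood of the region above, and it carries no test. It ends at the nearest regions with a duodenum peak, so by construction none of the 15 duodenum libraries had a peak in it. In this stretch 7 of 8 colon libraries had 11 peaks in 4 regions. Of these 11 peaks, 7 were those of the region at 0.0 kb. How often stretches of this kind occur over the genome was not counted. Besides the region at 0.0 kb, chr3:14801950-14802264 at 21.7 kb had a peak in adult colon 2 and adult colon 3, with a normalised pileup of 0.526 and 0.550, and in no other library. The remaining 2 regions were single peaks, with a normalised pileup of 0.514 at 16.9 kb in adult colon 1 and 0.489 at 26.6 kb in adult colon 2. All 4 of these adult colon values at 16.9, 21.7 and 26.6 kb were above the highest duodenum floor.

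The first region lower in colon was chr3:14648688-14649473, at -131.4 kb. It had a peak in 0 of 8 colon libraries and 15 of 15 duodenum libraries (exact p = 2.04e-06, adjusted p = 0.000174, Fisher's exact test with Benjamini-Hochberg adjustment). Normalised pileup was 0.494, 1.13 and 1.56 in juvenile duodenum. It was 1.26, 1.02 and 0.376 in adult villus and 2.16, 0.981 and 0.963 in adult crypt. It was 1.72, 1.06 and 0.605 in geriatric villus and 2.03, 1.21 and 0.544 in geriatric crypt. All 5 duodenum groups overlapped one another, and 14 of the 15 values lay above 0.390, the highest colon floor. Across the genome, 998 regions, or 1.17%, had this pattern of every duodenum library and no colon library. The call was lost with equal list lengths, where 0 of 8 colon and 7 of 15 duodenum libraries kept a peak (adjusted p = 0.245, Fisher's exact test). It was also lost where a peak had to cover 50% of the region, which 0 of 8 colon and 2 of 15 duodenum libraries did (adjusted p = 0.661, Fisher's exact test).

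The second was chr3:14620105-14620447, at -160.2 kb near the window's edge, with a peak in 1 of 8 colon and 13 of 15 duodenum libraries (exact p = 0.00105, adjusted p = 0.0181, Fisher's exact test with Benjamini-Hochberg adjustment). The colon peak was in geriatric proximal colon 3, with a normalised pileup of 0.353. Juvenile duodenum had 1.81, 1.66 and 1.80. Adult villus had 1.35 and 0.695 with 1 library lacking a peak, and adult crypt had 1.39, 1.31 and 1.05. Geriatric villus had 1.16 and 0.605 with 1 library lacking a peak, and geriatric crypt had 2.41, 1.61 and 0.692. Every duodenum value was above the highest colon floor. The lowest of the 3 juvenile duodenum values exceeded all villus values. With equal list lengths the region was not called (adjusted p = 0.182, Fisher's exact test).

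**Figure D2:**
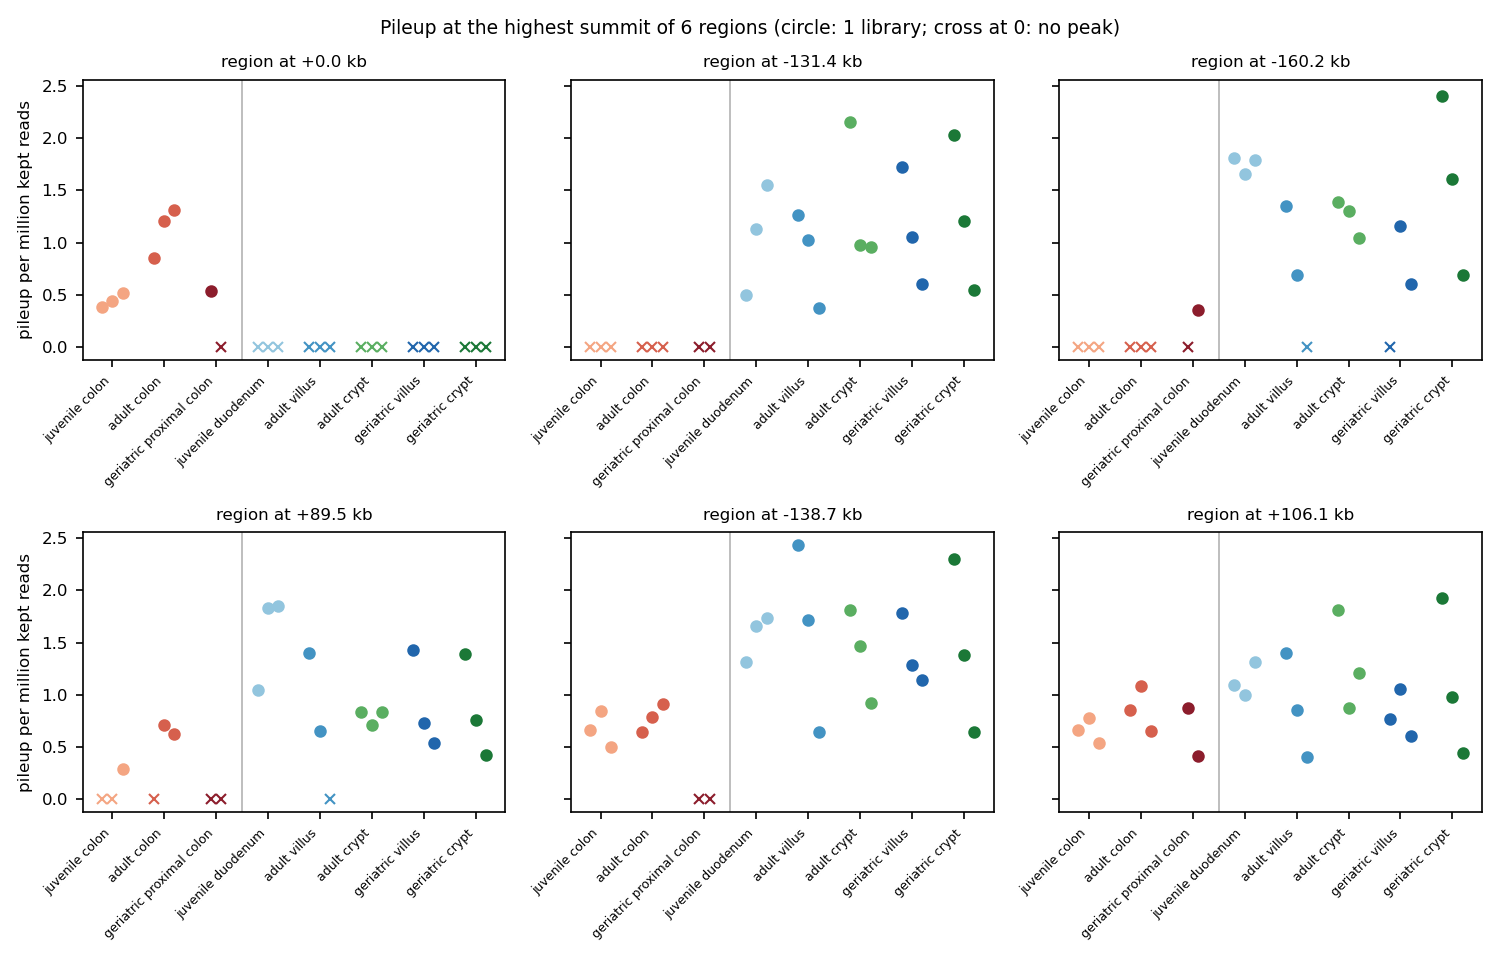
Normalised pileup at the highest summit in 6 regions, one circle per library and a cross at 0 for a library without a peak, with colon groups left of the grey line. The region at 0.0 kb has values in colon libraries only, the one at -131.4 kb in duodenum libraries only, and the one at 106.1 kb in all 23.

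Of the 7 regions with peaks in both tissues, 3 were open in at least 17 libraries. The region chr3:14886085-14887076, at 106.1 kb, was the widest and the only one with a peak in all 23 libraries. Its normalised pileup was 0.667, 0.781 and 0.543 in juvenile colon, 0.856, 1.09 and 0.655 in adult colon, and 0.877 and 0.412 in geriatric proximal colon. Juvenile duodenum had 1.10, 1.00 and 1.32, adult villus had 1.40, 0.859 and 0.410, and adult crypt had 1.81, 0.872 and 1.21. Geriatric villus had 0.773, 1.06 and 0.605, and geriatric crypt had 1.93, 0.982 and 0.445. The tissues overlapped, with means of 0.735 ± 0.212 in colon (SD, n = 8) and 1.05 ± 0.438 in duodenum (SD, n = 15). Relative levels were 0.571 ± 0.210 in colon and 0.625 ± 0.156 in duodenum (SD, n = 8 and n = 15).

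Within this shared region the place of the highest summit varied. It lay 128 to 257 bp from the region's start in 3 of 8 colon libraries and 13 of 15 duodenum libraries. It lay 468 to 749 bp from the start in 5 of 8 colon libraries and 2 of 15 duodenum libraries, 1 adult villus and 1 geriatric crypt. The division between these sets is the widest gap in the positions and was chosen after seeing them, so no test is given. The region held 2 separate peaks in 1 colon library and 6 duodenum libraries, and 1 peak in the others.

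**Figure D3:**
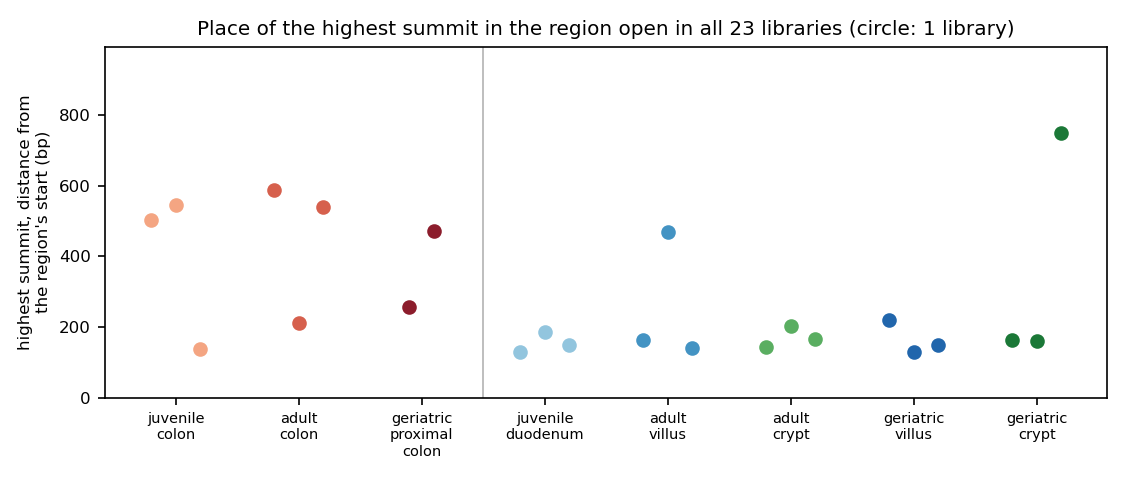
Distance in bp from the start of the region at 106.1 kb to its highest summit, one circle per library, with colon groups left of the grey line. Values fall between 128 and 257 bp or between 468 and 749 bp, and 13 of 15 duodenum libraries are in the lower range.

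The region chr3:14641358-14642225, at -138.7 kb, had a peak in 6 of 8 colon libraries and 15 of 15 duodenum libraries (adjusted p = 0.334, Fisher's exact test) and was not called. With equal list lengths it was held by 3 of 8 colon and 15 of 15 duodenum libraries and was called lower in colon (adjusted p = 0.0285, Fisher's exact test), the one window region called in that setting. Normalised pileup was 0.667, 0.843 and 0.501 in juvenile colon and 0.642, 0.789 and 0.917 in adult colon, and both geriatric proximal colon libraries lacked a peak. Juvenile duodenum had 1.32, 1.66 and 1.74, adult villus had 2.44, 1.72 and 0.650, and adult crypt had 1.81, 1.47 and 0.921. Geriatric villus had 1.78, 1.29 and 1.14, and geriatric crypt had 2.30, 1.38 and 0.643. On the relative scale colon ran from 0.294 to 0.643 and duodenum from 0.647 to 1.17, so the listed values did not overlap, by a narrow margin. Adult colon was at 0.335 ± 0.0551 and juvenile colon at 0.577 ± 0.0574 relative to each library's median (SD, n = 3 each), which is the opposite order to normalised pileup, where adult colon averaged 0.783 ± 0.138 and juvenile colon 0.670 ± 0.171 (SD, n = 3 each).

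The region chr3:14869647-14870174, at 89.5 kb, had a peak in 3 of 8 colon and 14 of 15 duodenum libraries (exact p = 0.00860, adjusted p = 0.0636, Fisher's exact test with Benjamini-Hochberg adjustment) and was not called. Its normalised pileup in colon was 0.292 in juvenile colon 3, 0.714 in adult colon 2 and 0.629 in adult colon 3. The juvenile duodenum libraries had 1.04, 1.83 and 1.86. Adult and geriatric duodenum ranged from 0.420 to 1.43 with a median of 0.759 over the 11 of 12 libraries with a peak. Leaving out adult colon 2, adult colon 3 or adult villus 3 brought its adjusted p to 0.0489, 0.0464 and 0.0243 by Fisher's exact test. With peaks of −log10 q of at least 5 the adjusted p was 0.0258.

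The region chr3:14667209-14667425, at -113.1 kb, was next, with a peak in 0 of 8 colon and 9 of 15 duodenum libraries (exact p = 0.00717, adjusted p = 0.0586, Fisher's exact test with Benjamini-Hochberg adjustment). Normalised pileup was 1.04, 1.05 and 0.838 in juvenile duodenum and 0.713, 0.660 and 0.470 in geriatric villus. Adult villus 2 had 0.654, geriatric crypt 1 had 0.909 and geriatric crypt 2 had 0.536, while no adult crypt library had a peak. Without adult crypt 2 or without geriatric crypt 3 its adjusted p was 0.0496 by Fisher's exact test.

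**Figure D4:**
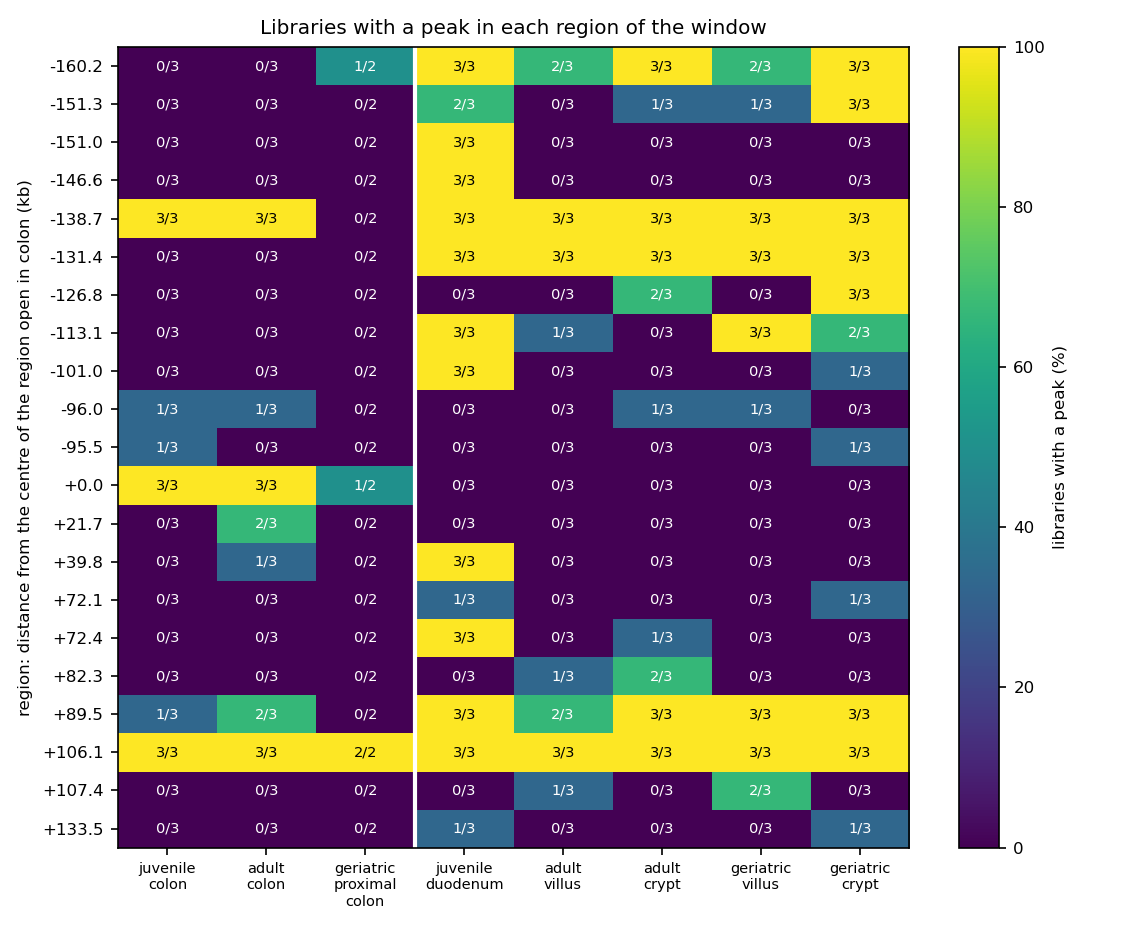
Number of libraries with a peak in each of the 21 regions, by group, with rows ordered by distance in kb and colour giving the percent of libraries. The 3 colon groups are left of the white line. The row at 0.0 kb is filled in colon groups only, and juvenile duodenum has more filled rows than any other group.

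Summed over the window, the colon had less called accessibility than the duodenum. The number of regions with a peak was 4, 3 and 5 in juvenile colon, 4, 8 and 5 in adult colon, and 2 and 2 in geriatric proximal colon. Juvenile duodenum had 12, 15 and 15, adult villus 6, 8 and 4, adult crypt 8, 7 and 8, geriatric villus 5, 8 and 9, and geriatric crypt 12, 8 and 7. The mean was 4.125 regions in colon and 8.8 in duodenum, a difference of -4.675 (two-sided exact permutation test over libraries, p = 0.00186). The window held 0.0196% of a colon library's peaks and 0.0212% of a duodenum library's peaks on average, and that share did not pass the test (p = 0.581, two-sided exact permutation test). With every list cut to the 11355 strongest peaks, means were 1.625 regions in colon and 2.6 in duodenum (p = 0.0815, two-sided exact permutation test).

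The normalised pileup summed over all peaks in the window averaged 2.74 in colon and 9.09 in duodenum, a difference of -6.35 (p = 0.00127, two-sided exact permutation test). Colon libraries ranged from 0.765 to 5.83 with a median of 2.17, and duodenum libraries from 2.67 to 18.4 with a median of 7.31. The ranges overlapped through adult villus 3 at 2.67 and geriatric crypt 3 at 3.86. With equal list lengths the means were 1.19 in colon and 3.95 in duodenum (p = 0.00502, two-sided exact permutation test). Relative to each library's own median the sum was 1.31 to 2.39 in colon and 3.24 to 9.21 in duodenum, without overlap (p = 4.28e-05, two-sided exact permutation test). A place without a called peak adds 0 to these sums, so they also depend on the length of the peak list. Dividing by the median does not adjust for that length, and the same sum over the genome is not given. Peaks covered 312 to 2434 bp of the window in colon libraries and 1067 to 4004 bp in duodenum libraries. The mean relative level of a window peak was 0.487 ± 0.185 in colon (SD, n = 8) and 0.553 ± 0.0468 in duodenum (SD, n = 15).

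**Figure D5:**
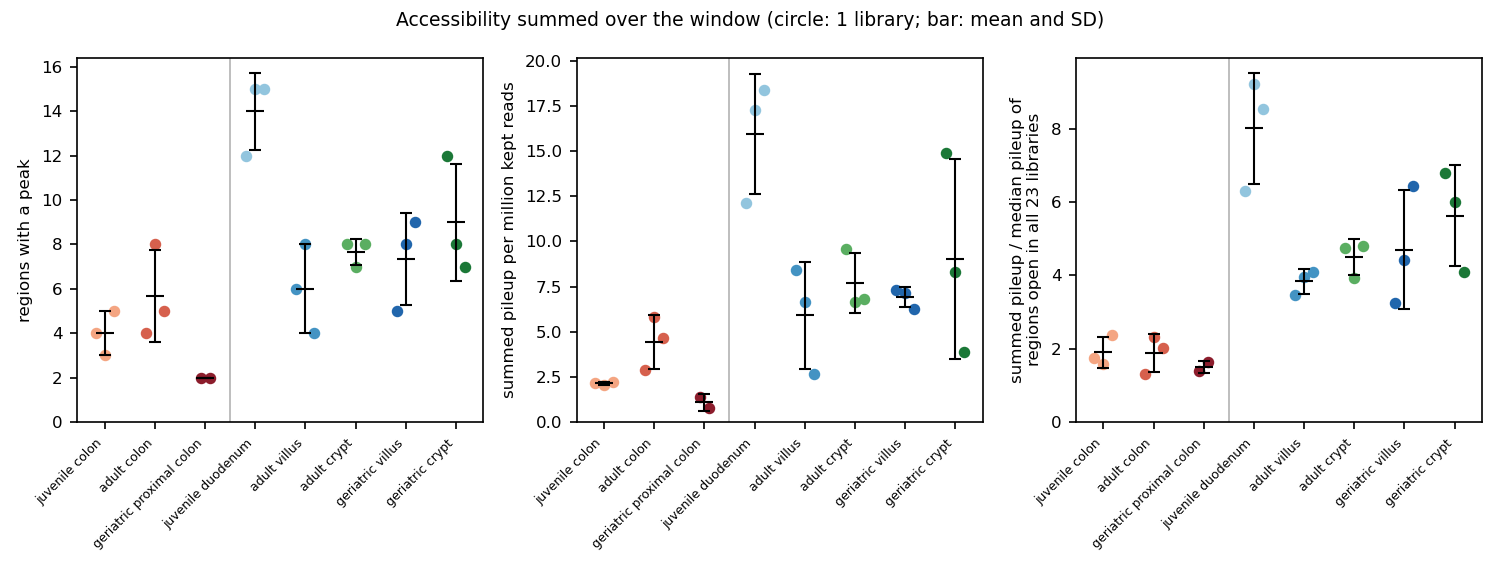
Regions with a peak, summed normalised pileup, and summed pileup divided by the library's median over regions open in all 23 libraries, one circle per library with the mean and SD of each group. In the right panel all 8 colon libraries are at or below 2.39 and all 15 duodenum libraries at or above 3.24.

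Ages were compared within the duodenum as well. Juvenile duodenum had the highest mean number of window regions with a peak among the 8 groups, 14 ± 1.73 (SD, n = 3). Of the 21 regions, 5 had a peak in all 3 juvenile and at most 1 of the 12 adult and geriatric duodenum libraries. The genome share for that exact rule is not given, so the count describes these regions and is no test. With equal list lengths no library kept a peak in any of these 5 regions. No window region passed the adjusted threshold in adult and geriatric against juvenile duodenum (Fisher's exact test with Benjamini-Hochberg adjustment), where the share called over the genome was 0% in either direction and the smallest adjusted p anywhere was 0.0542. At an unadjusted p under 0.05, these same 5 of 21 regions, or 23.8%, were lower in the later ages, against 10.6% of the genome. By the same rule 0 were higher, against 2.1%. Summed normalised pileup averaged 7.38 in adult and geriatric duodenum and 15.9 in juvenile duodenum, a difference of -8.54 (p = 0.0044, two-sided exact permutation test of 12 against 3 libraries). With equal list lengths these means were 3.55 in adult and geriatric duodenum and 5.58 in juvenile duodenum (p = 0.233, two-sided exact permutation test). Juvenile duodenum libraries had 12.1, 17.3 and 18.4, and of the later libraries geriatric crypt 1 at 14.9 stood above the lowest of them.

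Of these 5 regions, chr3:14633671-14634014 at -146.6 kb and chr3:14629385-14629576 at -151.0 kb had a peak in juvenile duodenum and in no other library of the series. Normalised pileup was 1.15, 1.18 and 0.898 at -146.6 kb and 0.934, 0.784 and 0.718 at -151.0 kb. Over the genome 3040 regions, or 3.56%, had that same pattern of all juvenile duodenum libraries and no others. The region chr3:14820134-14820442 at 39.8 kb had 0.714, 0.523 and 0.599 in juvenile duodenum, and outside it a peak in adult colon 2 at 0.564. For these 3 regions the exact p was 0.0022 and the adjusted p 0.0542 (Fisher's exact test with Benjamini-Hochberg adjustment).

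The remaining pair each had 1 peak in a later library. At 72.4 kb, chr3:14852712-14852942 had a normalised pileup of 0.879, 0.741 and 1.20 in juvenile duodenum and 0.670 in adult crypt 3. At -101.0 kb, chr3:14679304-14679609 had 0.769, 0.959 and 0.778 in juvenile duodenum and 0.642 in geriatric crypt 1. Both had an exact p of 0.00879 and an adjusted p of 0.158 (Fisher's exact test with Benjamini-Hochberg adjustment). In these 5 regions the juvenile values lay between 0.523 and 1.20, below the same libraries at -160.2 kb.

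Regions open in every library of one group and in none of the other were counted without a test, since 3 against 3 libraries cannot give an exact permutation p below 0.1. Between adult villus and juvenile duodenum, 0 of 16 window regions were exclusive to adult villus, against 5.3% of the genome, and 5 were exclusive to juvenile duodenum, against 8.25%. Between geriatric villus and juvenile duodenum the window held 0 of 16 in geriatric villus, against 3.69%, and 5 in juvenile duodenum, against 10.5%. These comparisons share the juvenile duodenum libraries, and in both the 5 regions are the same as those described above. Between geriatric and adult mice no window region was exclusive, in either direction, among 10 regions for villus and 15 for crypt. The genome shares there were 0.17% for geriatric villus, 1.35% for adult villus, 0.454% for geriatric crypt and 0.627% for adult crypt.

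The study also compared fractions of the duodenum. No window region was called between 6 villus and 6 crypt libraries (Fisher's exact test with Benjamini-Hochberg adjustment), where 0% of the genome was called. At an unadjusted p under 0.05, 0 of 21 regions were higher in villus, against 3.51% of the genome, and 1 was lower, against 4.34%. Summed normalised pileup averaged 6.41 in villus and 8.35 in crypt, a difference of -1.94 (p = 0.314, two-sided exact permutation test of 6 against 6 libraries). The difference passed the threshold when pileup was also scaled to the read extension (p = 0.0455), when fold enrichment was summed (p = 0.0281) and with equal list lengths (p = 0.0195), each by a two-sided exact permutation test. The covered length was 2361 ± 732 bp in villus and 2383 ± 665 bp in crypt (SD, n = 6 each).

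The region lower in villus was chr3:14653517-14653808, at -126.8 kb, with a peak in 0 of 6 villus and 5 of 6 crypt libraries (exact p = 0.0152, adjusted p = 0.193, Fisher's exact test with Benjamini-Hochberg adjustment). Normalised pileup was 1.18, 0.580 and 0.371 in geriatric crypt, adult crypt 2 had 0.872 and adult crypt 3 had 0.460. No juvenile duodenum or colon library had a peak there. In the other direction chr3:14887775-14888000, at 107.4 kb, had a peak in 3 of 6 villus and 0 of 6 crypt libraries (exact p = 0.182, adjusted p = 0.770, Fisher's exact test with Benjamini-Hochberg adjustment). Its values were 0.613 in adult villus 2, 0.693 in geriatric villus 2 and 0.470 in geriatric villus 3. Exclusive regions numbered 0 of 14 for geriatric villus, against 4.93% of the genome, and 1 of 14 for geriatric crypt, against 5.99%. Between adult villus and adult crypt there were none of 12 in either direction, against 4.22% and 4.55%.

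Within the colon, summed normalised pileup was 2.15, 2.06 and 2.19 in juvenile colon, 2.87, 5.83 and 4.64 in adult colon, and 1.41 and 0.765 in geriatric proximal colon. Adult colon averaged 4.44 and juvenile colon 2.14, a difference of 2.31, with no overlap (exact permutation p = 0.1, the smallest that 3 against 3 allow). Relative to each library's median the sums were 1.31, 2.31 and 2.01 in adult colon and 1.75, 1.57 and 2.39 in juvenile colon, a difference of -0.0231. With equal list lengths the direction turned, with means of 1.12 in adult colon and 1.51 in juvenile colon, a difference of -0.385 (exact permutation p = 0.1). Geriatric proximal colon averaged 1.09 and adult colon 4.44, a difference of -3.35 (exact permutation p = 0.2). On the relative scale that difference was -0.377, with overlap, and with equal list lengths it was -0.302 in normalised pileup. Peaks covered 312 and 573 bp in geriatric proximal colon, 1723 to 2434 bp in adult colon and 1463 to 1759 bp in juvenile colon.

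Between adult and juvenile colon no window region of 8 was exclusive to either, against 7.58% of the genome for adult colon and 0.429% for juvenile colon. Between geriatric proximal colon and adult colon, 0 of 8 were exclusive to geriatric proximal colon, against 1.16%, and 1 was exclusive to adult colon, against 17.8%. That region was the one at -138.7 kb, and it was also the 1 of 7 exclusive to juvenile colon next to geriatric proximal colon, against 8.31%, where geriatric proximal colon had 0, against 2.69%.

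Matched by age, the tissues were compared in the same way. Juvenile colon had 1 of 17 regions exclusive to it, the one at 0.0 kb, against 0.768% of the genome, and juvenile duodenum had 8, against 27.7%. Next to adult crypt, adult colon had 1 of 13, again that at 0.0 kb, against 2.8%, and adult crypt had 2, against 11.8%. Next to adult villus, adult colon had that same 1 of 12, against 2.62%, and adult villus had 1, against 14.1%. Geriatric proximal colon had 0 of 10 next to geriatric villus, against 1.38%, and geriatric villus had 4, against 24.7%. Geriatric proximal colon had 0 of 13 next to geriatric crypt, against 0.369%, and geriatric crypt had 5, against 21.4%.

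The authors' deposited lists of regions that differ between groups were searched in the window as well. Made from the same libraries, they are not independent evidence of direction. Of the 28 lists, 10 held a region of the window, with 26 entries at 12 distinct places. In the authors' deposited lists the regions at 0.0 and 21.7 kb were higher in adult colon than in adult crypt and than in adult villus, lists that covered 9.75% and 8.48% of the catalogue. The authors' deposited list of regions higher in juvenile colon than in juvenile duodenum held the regions at 0.0 and 106.1 kb, and that list covered 6.85%. At 106.1 kb the direction of that list differs from normalised pileup in the peak tables, while relative levels overlapped. Normalised pileup there was 0.663 ± 0.119 in juvenile colon and 1.14 ± 0.161 in juvenile duodenum (SD, n = 3 each), and relative levels were 0.576 ± 0.0298 in juvenile colon and 0.572 ± 0.0381 in juvenile duodenum.

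In the opposite direction, the authors' deposited lists had 3 window regions higher in adult crypt than in adult colon, at -160.2, -131.4 and -126.8 kb (6.4% of the catalogue), and 1 higher in adult villus than in adult colon, at -131.4 kb (8.13%). The list for juvenile duodenum over juvenile colon held 5, at -160.2, -146.6, -131.4, 72.4 and 89.5 kb, with 6.73% of the catalogue listed. The authors' deposited lists put 6 window regions higher in juvenile duodenum than in adult villus, at -160.2, -151.0, -146.6, 39.8, 72.4 and 89.5 kb, which is 28.6% of the 21 regions against 7.92% of the catalogue. They put 3 higher in juvenile duodenum than in geriatric villus, at -146.6, 39.8 and 72.4 kb, against 5.67%. They also held the region at -126.8 kb as higher in adult crypt than in adult villus, against 4.1%, and the one at 107.4 kb as higher in geriatric villus than in geriatric crypt, against 4.58%. The 18 other lists, which include adult against geriatric duodenum and all lists with geriatric proximal colon, held 0 window regions. They covered 0.0433% to 6.92% of the catalogue each. Among them were adult colon over geriatric proximal colon with 2.04%, its reverse and adult colon over juvenile colon with 2.32% each, and adult villus over adult crypt with 3.65%.

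The other regions were open in few libraries. The region chr3:14628935-14629337 at -151.3 kb had a peak in 0 of 8 colon and 7 of 15 duodenum libraries, with a normalised pileup of 0.371 to 1.32 (adjusted p = 0.219, Fisher's exact test with Benjamini-Hochberg adjustment). At -96.0 kb, chr3:14684339-14684567 had a peak in 2 of 8 colon and 2 of 15 duodenum libraries, and at -95.5 kb chr3:14684858-14685035 had 1 of 8 colon and 1 of 15 duodenum libraries. The region chr3:14862686-14862882 at 82.3 kb had a peak in 1 adult villus and 2 adult crypt libraries. At 72.1 and 133.5 kb, chr3:14852450-14852595 and chr3:14913864-14914065 each had a peak in 1 juvenile duodenum and 1 geriatric crypt library. In these last 5 regions every value of normalised pileup lay between 0.321 and 0.566.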

How the data were processed

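Peaks were called by the authors on each of 23 ATAC-seq libraries with MACS2 2.1.0.20150731 without a control, at a q cutoff of 0.05, an effective genome size of 1.87e+09, 1 read kept per position and a local background of 10 kb, per the file headers. The read extension, set per library, was 68 to 210 bp, and the deposited pileup is a signal that is not scaled to depth. The deposited −log10 p-value and −log10 q-value and the deposited fold enrichment, a ratio of pileup to local background, are the authors' own values per peak. The submitters' processing notes name mm9, cutadapt 1.9.1, Bowtie2, SAMtools 0.1.19, bedtools 2.17.0, Picard 2.18.27, deepTools and DiffBind. Positions of peaks and of the 28 deposited lists are the authors', 1-based here. No source used here gives the model or threshold of the lists.

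Peaks overlapping by at least 1 bp were merged, and regions held by at least 2 libraries were kept. Presence was tested for all of them with two-sided Fisher's exact tests and Benjamini-Hochberg adjustment at 0.05. Window sums were compared by two-sided exact permutation tests over libraries. No model was fitted, and no p-value is given for the pileup of a single region. Every region held by at least 2 libraries is reported. Window, members and rules were chosen with earlier results of these data known. Python 3.11.15, NumPy 2.4.6, SciPy 1.17.1 and Matplotlib 3.10.9 were used, and the Fisher procedure was tested on simulated data. No 2 peak tables were identical. The series text calls replicates biological, and whether villus and crypt libraries share animals is not given. The p-values therefore measure the spread between libraries, part of which may be technical. The tests treat libraries of different ages and fractions as independent and exchangeable, which would not hold where libraries share animals. Alternatives were a stricter q, equal list lengths, 50% cover, other scalings, summit-based regions, a replicate block and leaving out each library.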

Additional observations from a re-analysis of the deposited data

Results flagged for a closer look

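With full peak lists, the age difference in summed normalised pileup ran in opposite directions in the 2 tissues. Summed normalised pileup was 2.31 higher in adult colon (4.44) than in juvenile colon (2.14), while adult villus (5.91) minus juvenile duodenum (15.9) was -10.0. With full lists no library of one age overlapped the other age within either tissue. The difference between these 2 age differences was not tested. On the relative scale adult minus juvenile colon was -0.0231, with overlap. With equal list lengths it was -0.385 in summed normalised pileup (1.12 in adult colon and 1.51 in juvenile colon, exact permutation p = 0.1). That is the same sign as the full-list difference in duodenum, and the equal-list value for adult villus minus juvenile duodenum is not given. Adult villus and juvenile duodenum also differ in fraction, so age and fraction cannot be told apart there.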

How the results depend on the processing

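Among the results that answer a comparison, 165 alternative values kept their direction and their side of the threshold, 5 lost the threshold, 3 gained it and 4 moved. No called value changed sign, while adult minus juvenile colon, which cannot pass 0.05, did in 2 settings. For named regions the numbers were 148 kept, 6 lost and 7 gained. In both sets most kept values came from leaving out 1 library at a time, not from a change of processing. Some of the 165 were counts of 0 called regions in contrasts where 0% of the genome was called. With equal list lengths, colon minus duodenum was -0.975 regions (exact permutation p = 0.0815) and -2.76 in summed normalised pileup (exact permutation p = 0.00502). In that setting and measure, villus minus crypt was -3.13 (exact permutation p = 0.0195) and adult and geriatric minus juvenile duodenum was -2.04 (exact permutation p = 0.233). Adult minus juvenile colon was -0.385 (exact permutation p = 0.1) and geriatric proximal minus adult colon was -0.302. Relative to regions open in all libraries, adult minus juvenile colon was -0.0231 and geriatric proximal minus adult colon was -0.377. As a percent of library peaks, colon minus duodenum was -0.00159 (exact permutation p = 0.581). Villus minus crypt was -2.82 per 100 bp of extension and -19.8 in summed fold enrichment. Regions called between colon and duodenum numbered 1 with equal lists and 1 with 50% cover, against 3 in the full lists. With equal lists all 3 lost their call and the 1 called was the region at -138.7 kb. With 50% cover it was that at -160.2 kb. At -log10 q of at least 5 the 3 called regions were all lower in colon. The causes were not tested, except that equal lists hold fewer peaks by construction.

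Leaving out 1 library at a time, colon minus duodenum ran from -5.23 to -4.23 regions and -6.81 to -5.69 summed normalised pileup, villus minus crypt from -2.83 to -0.631, adult and geriatric minus juvenile duodenum from -10.4 to -7.32, adult minus juvenile colon from 1.62 to 3.10, geriatric proximal minus adult colon from -4.14 to -2.66, and called regions from 3 to 4.

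Deviations of same-numbered villus and crypt libraries from their group means had correlations of -0.0548 to 0.156. For differently numbered libraries they were -0.181 to 0.170. The numbers were not taken to pair samples, but with so few libraries this check cannot show whether animals were shared. With a replicate block villus minus crypt was -1.94 (exact permutation p = 0.281) and 0 regions were called.

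Depth limits absence: a library without a peak gives no value below its floor. Every colon list was shorter than every duodenum list.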
